A study of Mus musculus with 14 samples.

Results

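The inflammasome and gasdermin genes described here are Nlrp6, Pycard, Casp1, Casp4, Il18, Gsdmd, Gsdmc2, Gsdmc3 and Gsdmc4, 9 of the 55401 genes counted. They were taken by name as members of one innate defence pathway, from a list made with earlier results of these data known, and were found in the table by their Ensembl IDs. RNA had been measured by APEX-seq in mouse small intestinal organoids (sIOs), which are crypt-derived cultures of the intestinal epithelium. In APEX-seq, a peroxidase (APEX2) fused to a bait protein biotinylates RNA around it once biotin-phenol and H2O2 are added, and the RNA pulled down with streptavidin is sequenced. The comparisons use 4 libraries of APEX2-DPP4, an apical bait, and 4 each of APEX2-GFP and APEX2-ACTB, both cytoplasmic baits. The study used adult male and female mice on a C57BL/6J background, and the sex of the donors of the sIOs is not given. All sIOs expressed the fusion from a lentivirus, and no other genetic change is named in the labels or the study's methods. A further 2 libraries used MITO-V5-APEX2, directed to mitochondria, 1 with H2O2 and 1 labelled with a c that was read as the control without H2O2. Whether each library was a culture of its own is not stated, and p-values therefore reflect the spread among these libraries alone, which may be technical.

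Inflammasomes are protein complexes that form when a sensor meets microbial or danger signals. The sensor binds the adaptor ASC, the product of Pycard, which gathers and activates caspase-1. Caspase-1 matures the cytokine IL-18 and cuts gasdermin D, whose freed end forms pores in the plasma membrane. Caspase-4, known as caspase-11 in mice, responds to cytosolic lipopolysaccharide and cuts gasdermin D without a sensor of the NLR family. NLRP6 is a sensor of the intestinal epithelium, where enterocytes and goblet cells express it. The Gsdmc genes encode further gasdermins, which type 2 cytokines induce in the mouse intestine.

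Of the 9 genes, 6 were counted in all 14 libraries and 3 were near or at 0. Levels are given as CPM (read counts scaled to a common library total) per kilobase of exonic length. These CPM were also corrected by TMM scaling for a few abundant genes taking up depth. The exonic length is the union of all exons of a gene in the GENCODE annotation of GRCm38. It can exceed the length of the transcripts present and so lower the value, which was not checked. For Pycard the union is 3800 bases and covers most of the gene's span, so the order of the genes is approximate. On this scale the mean level over the 12 libraries of the 3 baits was 43.7 for Nlrp6, 38.3 for Gsdmd, 36.3 for Casp1, 28.2 for Il18, 24.2 for Pycard and 5.22 for Casp4. The coefficient of variation of these genes over the 12 libraries was 62.5% (Gsdmd) to 120% (Casp1), and each step in this order was smaller than the standard deviation of the gene above it. Gsdmc2 had a mean level of 0.337 CPM per kilobase, all of it from 1 library, Gsdmc4 had 0.0303 and Gsdmc3 had 0.

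The Gsdmc genes stand beside each other on chromosome 15 and are near copies, which bears on their counts. Gsdmc2 lies at chr15:63824346-63845177, Gsdmc3 at chr15:63857724-63878558 and Gsdmc4 at chr15:63891264-63912297, all on the minus strand of GRCm38. Aligned coding sequences of Gsdmc2 and Gsdmc3 were 97.1% identical over 1440 bases, and each was 94.5% identical to Gsdmc4 over 1416 bases. Of all stretches of 75 bases, 39.3% in Gsdmc2, 35.8% in Gsdmc3 and 28.5% in Gsdmc4 occurred in another gene's transcripts, those of a Gsdmc relative. Reads that map to more than 1 place are not counted in the default setting of HTSeq, so these counts can miss part of the reads. The reads were sequenced in pairs, and a pair with 1 end in a shared stretch can still map to 1 place. The shares of stretches are therefore not shares of lost reads. The longest run of bases shared by the coding sequences of all 3 genes was 171 bases. Its first 60 bases, positions 519 to 578 of the Gsdmc2 coding sequence, are shown in lower case because no position differs.
All 3 genes: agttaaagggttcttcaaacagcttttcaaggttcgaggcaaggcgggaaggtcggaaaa
The 60 aligned bases with the most differences show where reads can be assigned to 1 gene. Capitals mark the 16 positions at which the 3 genes are not all the same. The stretch covers positions 803 to 862 of the Gsdmc2 and Gsdmc3 coding sequences and 809 to 868 of that of Gsdmc4.
Gsdmc2: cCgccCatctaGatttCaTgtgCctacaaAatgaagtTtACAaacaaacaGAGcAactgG
Gsdmc3: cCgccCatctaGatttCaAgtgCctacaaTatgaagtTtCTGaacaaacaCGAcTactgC
Gsdmc4: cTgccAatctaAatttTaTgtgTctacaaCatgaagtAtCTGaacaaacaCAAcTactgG

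Nlrp6 (ENSMUSG00000038745.15) lies at chr7:140920902-140929192 on the plus strand, and shares no stretch of 75 bases with another gene. It was the gene of the set whose dependence on bait or on enterocyte state was asked. It was at 308, 219, 288 and 29 normalized CPM in APEX2-DPP4 libraries 1 to 4, at 61.2, 339, 454 and 461 in APEX2-GFP libraries 1 to 4, and at 43.9, 425, 4.89 and 31.5 in APEX2-ACTB libraries 1 to 4. Normalized CPM are CPM of the library total after TMM scaling, which corrects for a few abundant genes taking up depth. Each bait held high and low libraries: 1 library was low under APEX2-DPP4, 1 under APEX2-GFP and 3 under APEX2-ACTB, and the ranges of all baits overlapped. The means were 211 ± 127 for APEX2-DPP4, 329 ± 187 for APEX2-GFP and 126 ± 200 for APEX2-ACTB (SD, n = 4 each).

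Pycard (ENSMUSG00000030793.4, chr7:127989708-127993867, minus strand), the gene of the adaptor, was at 139, 210, 34.3 and 11.9 normalized CPM under APEX2-DPP4, at 16.9, 120, 255 and 112 under APEX2-GFP and at 18.6, 150, 24.1 and 12.5 under APEX2-ACTB, in libraries 1 to 4 each. Its low libraries included all 5 in which Nlrp6 was low, and library 3 of APEX2-DPP4 was low for Pycard but not for Nlrp6. Over 599 bases Pycard overlaps Gm45205, a gene model on the opposite strand. The Nextera XT kit does not mark strand, so reads from the shared bases cannot be told apart. The default mode of HTSeq counts reads of 1 orientation, and how this affected Pycard and Gm45205, or Il18 and its overlapping genes, could not be checked from the counts.

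Casp1 (ENSMUSG00000025888.6, chr9:5298517-5307265, plus strand) had the widest range of the 6 genes. Its values were 201, 79.6, 34.1 and 1.71 normalized CPM under APEX2-DPP4, 5.44, 47, 117 and 17.8 under APEX2-GFP and 4.37, 134, 9.84 and 0.0285 under APEX2-ACTB. The lowest value, in library 4 of APEX2-ACTB, was a single read of a library of 32961299 counts. Casp1 was high in library 2 of APEX2-ACTB and low in the other 3, and all baits overlapped.

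Casp4 (ENSMUSG00000033538.13, chr9:5308828-5336783, plus strand) starts close behind the end of Casp1. It was at 32.3, 13.1, 12.1 and 1.59 normalized CPM under APEX2-DPP4, at 4.21, 39.6, 41.8 and 23.5 under APEX2-GFP and at 30.5, 10.4, 21.1 and 1.97 under APEX2-ACTB. Unlike the genes above, Casp4 was not highest in library 2 of the APEX2-ACTB set. The 2 caspase genes shared no stretch of 75 bases with each other or with another gene.

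Il18 (ENSMUSG00000039217.13, chr9:50554827-50581840, plus strand), the cytokine gene, was at 87.7, 7.38, 4.65 and 10.1 normalized CPM under APEX2-DPP4, at 10.8, 9.29, 47.9 and 0.336 under APEX2-GFP and at 32.2, 78.2, 30.1 and 30.4 under APEX2-ACTB. All 4 APEX2-ACTB libraries were above 3 of the 4 libraries of each of the other baits, but APEX2-DPP4 library 1 and APEX2-GFP library 3 lay within or above their range. Il18 overlaps the opposite-strand genes Bco2, over 355 bases, and Tex12, over 4507 bases.

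Gsdmd (ENSMUSG00000022575.5, chr15:75862327-75867408, plus strand), the pore-forming target of the caspases, was at 169, 9.64, 72.5 and 131 normalized CPM under APEX2-DPP4, at 133, 24, 82.5 and 1.68 under APEX2-GFP and at 160, 112, 125 and 72.9 under APEX2-ACTB. Its 2 lowest values were in library 4 of APEX2-GFP and library 2 of APEX2-DPP4, in both of which Nlrp6 was high. Library 4 of APEX2-GFP held 20 reads of Gsdmd and 4 of Il18 against 5487 of Nlrp6, in the smallest of all libraries.

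**Figure D1:**
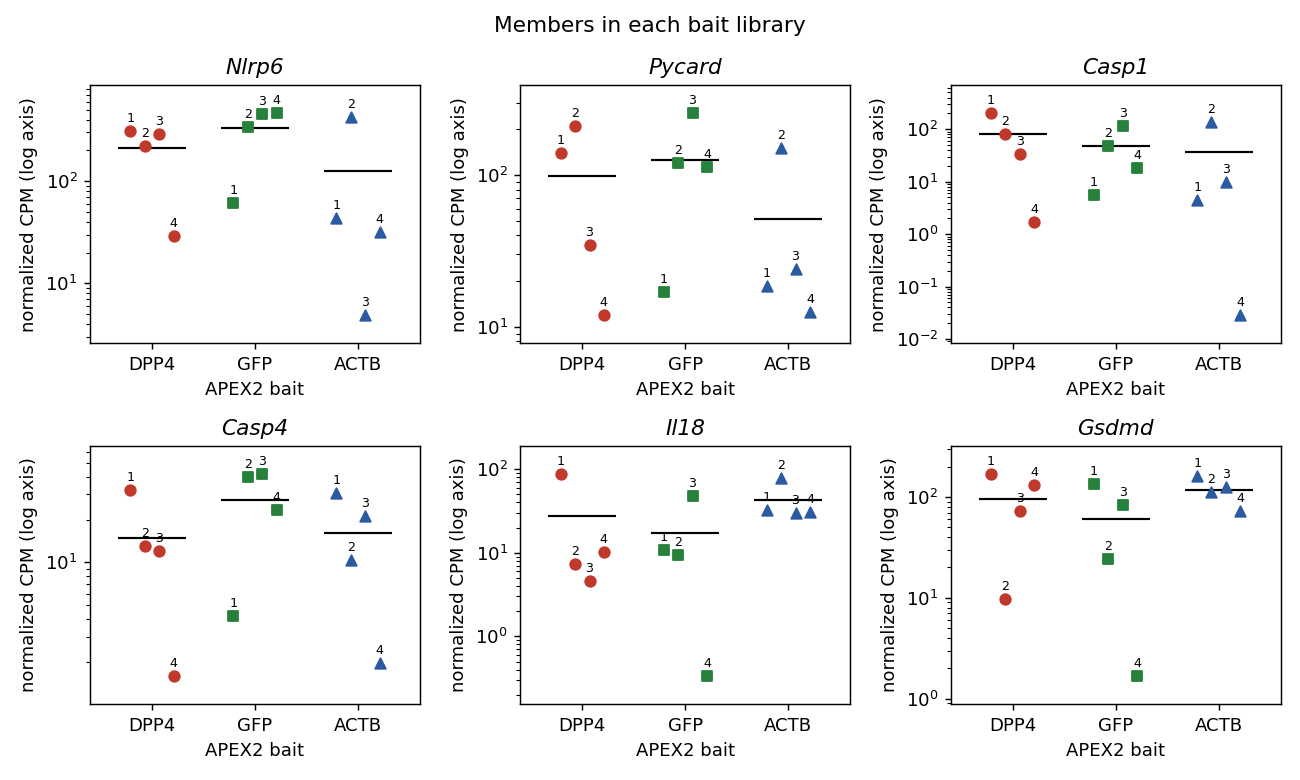
Normalized CPM (log axis) of the 6 genes counted in every library, by APEX2 bait. Each point is 1 library with its replicate number, and the line is the mean of the 4 libraries. Under every bait the libraries of a gene spread widely, for Nlrp6 from 29 to 308 (DPP4), from 61.2 to 461 (GFP) and from 4.89 to 425 (ACTB), and no gene separates the baits.

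The Gsdmc genes were counted in few libraries. Gsdmc2 (ENSMUSG00000056293.12) had 258 reads (9.36 normalized CPM) in APEX2-ACTB library 2 and 0 in the other 13 libraries. Against the highest limit that a count of 0 allows in the other 11 bait libraries (3 reads per library, 0.341 normalized CPM), this was at least 27.4-fold higher. Gsdmc3 (ENSMUSG00000055827.13) had 0 reads in all 14 libraries, which in the bait libraries allows up to 0.0676 to 0.341 normalized CPM by library. Gsdmc4 (ENSMUSG00000055748.12) had 2 and 4 reads in APEX2-DPP4 libraries 2 and 4, 3, 5 and 1 in APEX2-ACTB libraries 1, 3 and 4, and 0 elsewhere. No read of Gsdmc4 was found in the library that held Gsdmc2, nor in any APEX2-GFP library. Limits of this kind cover counting error only.

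The first question was whether the apical bait differed from either cytoplasmic bait. Comparisons are written with the bait in the numerator first, so that DPP4/GFP is APEX2-DPP4 relative to APEX2-GFP. No member passed the test in DPP4/GFP or DPP4/ACTB, and none had libraries that separated the baits. Nlrp6 had a log2 fold change of -0.64 (SE 0.69, edgeR's quasi-likelihood test, adjusted p = 1). For DPP4/ACTB it was 0.81 (SE 1.25, adjusted p = 1), so its sign differed between the cytoplasmic baits and its error exceeded its size in both. The other members counted in every library had log2 fold changes of -0.88 (Casp4, SE 0.85) to 0.76 (Casp1, SE 1.26) against APEX2-GFP, and of -0.58 (Il18, SE 0.81) to 1.16 (Casp1, SE 2.04) against APEX2-ACTB. The adjusted p was 1 for each of these. Among all 26136 and 27451 genes tested, 0% were called in either comparison by the call rule (log2 fold change beyond 1 either way, adjusted p under 0.05), and 5.87% and 6.17% had an unadjusted p under 0.05. DESeq2 called 53 and 141 genes. No member was among them, but DESeq2 gave no adjusted p for Gsdmc4 in either comparison or for Il18 and Gsdmc2 in DPP4/ACTB. Libraries that did not overlap were found for 2.54% and 3.03% of the genes whose mean reached 1 CPM.

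Between the cytoplasmic baits no member passed the test either. Nlrp6 was at -1.38 (SE 1.3, adjusted p = 1) in ACTB/GFP, Pycard at -1.31 (SE 0.95, adjusted p = 0.993) and Il18 at 1.31 (SE 0.95, adjusted p = 0.987). Casp1, Casp4 and Gsdmd were at -0.36 (SE 1.84), -0.77 (SE 0.86) and 0.98 (SE 0.92), each at an adjusted p of 1. Of the 26470 genes tested here by edgeR, 0% were called, 5.61% had an unadjusted p under 0.05, and 2.5% of those whose mean reached 1 CPM had libraries that did not overlap. DESeq2 called 73 genes here and none of the 6 members counted in every library, and gave no adjusted p for Gsdmc2 and Gsdmc4. Since the comparisons share libraries, a low library of one bait enters 2 of them. Library 2 of APEX2-ACTB was the highest of that bait for Nlrp6, Casp1 and Pycard, and the estimates moved with it. Without it, ACTB/GFP was at -3.62 for Nlrp6 (adjusted p = 0.394), -3.32 for Casp1 (0.573) and -2.79 for Pycard (0.338), and DPP4/ACTB at 3.03 (0.176), 4.16 (0.657) and 2.5 (0.274), adjusted p by edgeR in parentheses. Over all left-out libraries and other settings that gave an adjusted p, those of the members were at or above 0.626, 0.338 and 0.0731 in DPP4/GFP, ACTB/GFP and DPP4/ACTB.

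For the Gsdmc genes the fitted fold changes rest on a single library or a few reads and give no bound. Gsdmc2 was tested in ACTB/GFP and in DPP4/ACTB (adjusted p = 0.814 and 0.806), and Gsdmc4 in all 3 comparisons (adjusted p = 0.836, 0.814 and 1 in the order DPP4/GFP, ACTB/GFP, DPP4/ACTB). Gsdmc3 had too few reads to be tested. A p that misses the threshold does not show that the baits were alike, and the standard errors leave room for differences of several-fold.

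**Figure D2:**
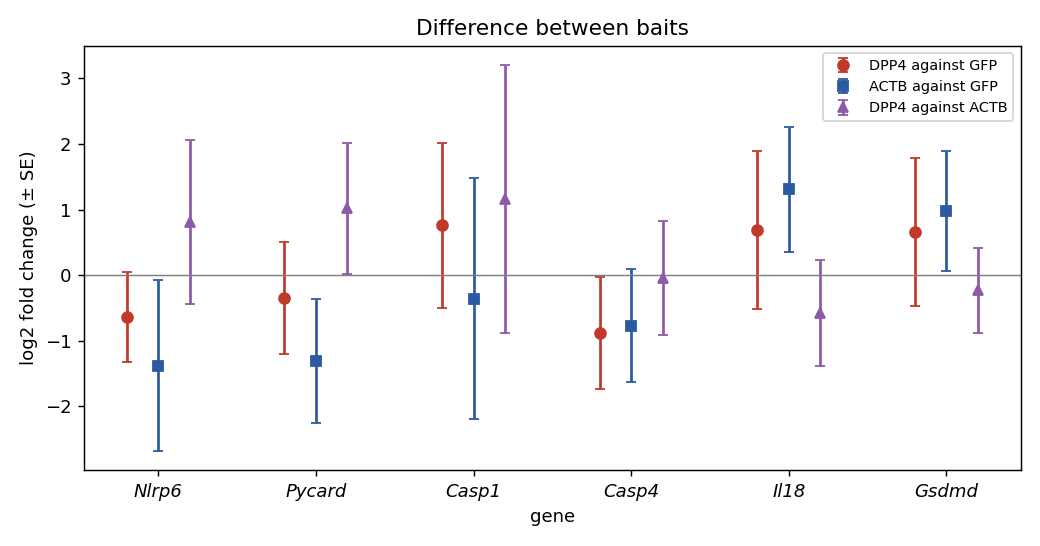
Log2 fold change between baits (points) with its standard error (bars) for the 6 genes counted in every library, in the 3 comparisons of 8 libraries each. Every estimate lies between -1.38 (Nlrp6, ACTB against GFP) and 1.31 (Il18, ACTB against GFP), and no gene passed the test in any comparison.

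The second question was whether the members moved with the enterocyte state of a library. An enterocyte index was computed for each of the 12 libraries as the mean log2 CPM of 20 enterocyte genes whose products are not apical membrane proteins, among them Fabp1 and Apoa4. No member is in that list. The list was chosen by protein and not by RNA position. By imaging, the study found Apob and Pck1 mRNA on the apical side of sIOs, and both genes are in the list. Whether the bait itself shifted the index was not tested. The index ran from 0 in APEX2-ACTB library 4, where Fabp1 was down to 0.0285 normalized CPM, to 10.27 in APEX2-DPP4 library 1. It was 10.27, 7.26, 7.05 and 3.39 in APEX2-DPP4 libraries 1 to 4, 2.91, 7.7, 8.71 and 6.7 in APEX2-GFP libraries 1 to 4 and 5.34, 9.67, 3.41 and 0 in APEX2-ACTB libraries 1 to 4. Libraries that were high and low in enterocyte genes thus occurred under all 3 baits. In these bulk libraries fewer enterocytes and less enterocyte RNA per cell cannot be told apart.

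Nlrp6, Pycard and Casp1 rose with the index and the other members did not pass the test. In a fit of all 12 libraries with bait in the model, the slope was 0.44 log2 units per index unit for Nlrp6 (SE 0.09, adjusted p = 0.00609), 0.45 for Pycard (SE 0.09, adjusted p = 0.00317) and 0.86 for Casp1 (SE 0.12, adjusted p = 0.000165). Of all 28765 genes tested, 2.11% had a slope called above 0, 1.41% one called below 0 and 3.53% either, against 3 of the 8 members tested. The median slope of all genes was -0.08. The 7 libraries with the highest index held 219 to 461 normalized CPM of Nlrp6 and the other 5 held 4.89 to 61.2, a description of the same values with no test. Among those 5 libraries Nlrp6 did not follow the order of the index: the library with index 0 held 31.5 and that with index 3.41 held 4.89.

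The calls of Nlrp6 and Pycard rested on library 2 of APEX2-ACTB, the only APEX2-ACTB library with a high index. Without it the slope of Nlrp6 was 0.32 (adjusted p = 0.324) and that of Pycard 0.47 (adjusted p = 0.096), and 345 genes were called in place of 1014. Casp1 kept its call without it (0.89, adjusted p = 0.0103) and without each of the other libraries in turn. Leaving out any other single library ended no member's call. Without both libraries whose total was under 50% of the median, the fourth libraries of APEX2-DPP4 and of APEX2-GFP, all 3 calls held (Nlrp6 0.40, adjusted p = 0.0175).

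Casp4 had a slope of 0.49 (SE 0.16, adjusted p = 0.0957) and passed the test, among the alternatives tried, only without library 2 of APEX2-ACTB (0.66, adjusted p = 0.0222). Il18 was at 0.27 (SE 0.12, adjusted p = 0.276) and Gsdmd at -0.02 (SE 0.14, adjusted p = 0.957). The sensor, the adaptor and caspase-1 thus passed the test, while the cytokine and the gasdermin that caspase-1 processes did not. Whether the slopes differ from each other was not tested. Gsdmc2 (1.31, SE 0.35, adjusted p = 0.0509) rested on 1 library and Gsdmc4 (-0.54, SE 0.28, adjusted p = 0.348) on 15 reads over the 12 libraries.

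**Figure D3:**
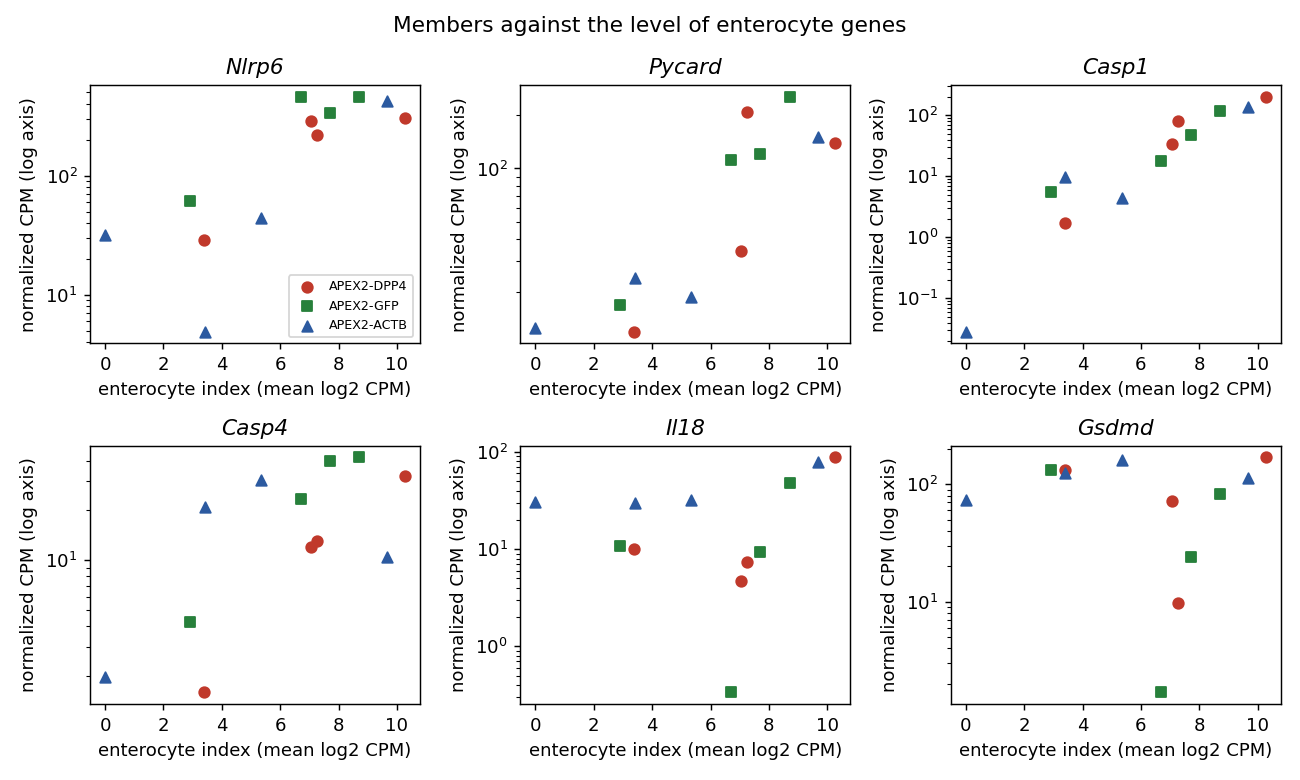
Normalized CPM (log axis) of 6 members against the enterocyte index (mean log2 CPM of 20 enterocyte genes), 1 point per library, coloured and shaped by bait. Casp1 runs from 0.0285 at index 0 to 201 at index 10.27, Nlrp6 is at 219 to 461 in the 7 libraries at the right and at 4.89 to 61.2 in the other 5, and Gsdmd has no slope that passed the test.

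Bait gave no call, with or without the index in the model. The test of the 3 baits gave an adjusted p of 0.776 for Nlrp6 with the index in the model and of 1 without it. For Pycard it was 0.958 and for Casp1 0.997 with the index. No member passed this test, with 0% of all genes called and 7.19% at an unadjusted p under 0.05. Without the index these shares were 0% and 6.75%. Whether the index takes up part of a difference between baits was not tested. With each library left out in turn, the adjusted p of the bait term for Nlrp6 ran from 0.751 to 0.949.

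Other epithelial genes moved with the same index. Of 7 goblet cell markers, Muc2, Tff3 and Fcgbp had called slopes above 0, with a median slope of 0.72 over the list, and the summed level of the list ran from 191 to 4250 normalized CPM under APEX2-ACTB, from 267 to 7550 under APEX2-DPP4 and from 418 to 13100 under APEX2-GFP. No goblet marker was at 0 in any of the 12 libraries. Of the other lists, 1 of 5 enteroendocrine markers tested (Sct) was called above 0, 1 of 8 tuft cell markers (Trpm5) and 1 of 4 stem cell markers (Ascl2) below 0, and none of 6 Paneth cell markers. Over all genes tested, 2.11% were called above 0 and 1.41% below. The part of goblet or enteroendocrine cells in the slopes of Nlrp6, Pycard and Casp1 was not tested. Macrophages and other immune cells also express inflammasome genes. Of 10 immune markers, 7 were tested and none was called, Itgam was at 0 in all 12 libraries, Cd3e, Tyrobp and Fcer1g in 9, Lyz2 in 6, Ptprc in 5 and Adgre1 in 4. The list summed to 10.1 to 28.3 normalized CPM under APEX2-ACTB, 8.43 to 67.9 under APEX2-DPP4 and 8.56 to 48.2 under APEX2-GFP. Most of this was Csf1r and Cd68.

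No member passed the test against interferon genes. Several inflammasome genes are known interferon targets, so an interferon index was formed in the same way from 29 of 30 listed interferon-stimulated genes. The slopes were -0.26 for Nlrp6 (SE 0.34), -0.17 for Pycard (SE 0.29), -0.05 for Casp1 (SE 0.72), 0.31 for Casp4 (SE 0.21), 0.08 for Il18 (SE 0.31) and 0.18 for Gsdmd (SE 0.23), each at an adjusted p of 1. Only 10 of 28765 genes (0.0348%) were called, 7 of them on the interferon list itself, and 5.16% had an unadjusted p under 0.05. Casp4 had the smallest unadjusted p of the members, 0.16 by edgeR. Changes of member levels with interferon genes were thus not detected, and among these 6 members the standard error was largest for Casp1.

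**Figure D4:**
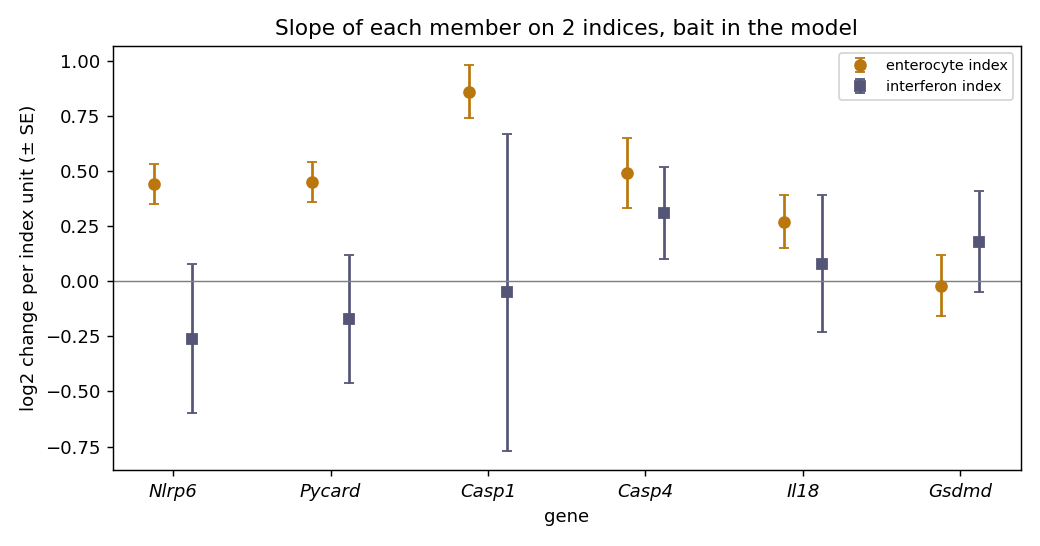
Slope of each of 6 members in log2 units per index unit (points) with its standard error (bars), on the enterocyte index and on the interferon index, each fitted over 12 libraries with bait in the model. On the enterocyte index Casp1 (0.86), Pycard (0.45) and Nlrp6 (0.44) passed the test, and on the interferon index no member did.

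How alike the members were across the 12 libraries is given here as a description of log2 CPM. Casp1 and Pycard were the most alike (Pearson's r 0.86, Spearman's rho 0.92), followed by Il18 and Gsdmd (r 0.81, rho 0.71) and by Nlrp6 and Pycard (r 0.79, rho 0.73). Il18 and Gsdmd both had their lowest value in APEX2-GFP library 4, the smallest library, at 4 and 20 reads. Their r leans on that library, and its value without it is not given. Of the 15 pairs of these 6 genes, 5 had an r below 0, the lowest being Pycard and Gsdmd (r -0.44, rho -0.33) and Nlrp6 and Gsdmd (r -0.43, rho -0.43). The points share the library's depth and its epithelial makeup.

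Among 9713 named genes with a mean of at least 10 normalized CPM, those most like Nlrp6 over the 12 libraries were Naip6 (r 0.963), Abcb1a (0.95), Slc25a15 (0.949), Tle4 (0.943) and Dab1 (0.941). Naip6 encodes a NAIP protein, and NAIPs sense bacterial flagellin and secretion system proteins for the NLRC4 inflammasome. ABCB1A is an efflux pump of the enterocyte's apical membrane. Casp1 was like Ackr4 (r 0.968) and Fabp1 (0.958), of which Fabp1 is a gene of the enterocyte index. Pycard was most like its overlapping neighbour Gm45205 (r 0.99), with which it shares 10.9% of its stretches of 75 bases, then Pdzd3 (0.973) and Lhpp (0.963). Il18 was most like Gde1 (r 0.956), Clcn2 (0.944) and Gm45236 (0.934), Gsdmd like the sulfate transporter gene Slc26a2 (0.961), Adamts7 (0.878) and Gde1 (0.875), and Casp4 like Afm (0.916), Galk2 (0.891) and Atf5 (0.891). Gde1 is on the lists of both Il18 and Gsdmd.

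In the promoter windows of the members, none of 6 short motifs was found. RefSeq windows (build GRCm38.p6, 250 bases before the annotated start) were at hand for 6 members, Nlrp6, Pycard, Casp1, Casp4, Il18 and Gsdmc3. The window of Nlrp6, the gene whose slope the question was about, covers chr7:140920652-140920901 on the plus strand and has no capitals, since no motif was matched in it.
Nlrp6: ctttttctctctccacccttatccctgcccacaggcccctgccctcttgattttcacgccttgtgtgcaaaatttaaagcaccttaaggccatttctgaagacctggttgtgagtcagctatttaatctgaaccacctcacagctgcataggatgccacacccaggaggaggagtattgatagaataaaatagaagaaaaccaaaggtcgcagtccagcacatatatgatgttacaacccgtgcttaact
The motifs, searched on both strands, were an interferon response element (a GAAA and, 2 free bases on, another GAAA, in 2.98% of all 32851 windows), a STAT site (TTCNNNGAA, 7.02%), an HNF4A site (CAAAGTCCA, 0.384%), a nuclear receptor half-site (AGGTCA, 14%), a CDX site (TTTATNG, 9.81%) and a GATA site (AGATAA, 9.99%). Absence says only that these letters do not occur in the windows.

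Of 43 further genes of inflammasome sensing, cell death and IL-1 family signalling, 42 were in the table. None was called between baits: 0 of 37 tested in DPP4/GFP and 0 of 40 in each of the other comparisons. The list's median log2 fold changes were 0.08, 0.32 and 0.10 in DPP4/GFP, ACTB/GFP and DPP4/ACTB, beside 0.09, 0.11 and 0.05 over all genes tested. Libraries that did not overlap were found for 1 of the 37 genes in DPP4/GFP, 0 of 40 in ACTB/GFP and 3 of 40 in DPP4/ACTB, beside 2.54%, 2.5% and 3.03% of all genes whose mean reached 1 CPM. The counts of the list also include tested genes with a mean under 1 CPM, so they cannot be set directly against these shares. Casp8, an apoptotic caspase that can also cut gasdermin D, had libraries that did not overlap between APEX2-DPP4 (62.3 ± 13.2 normalized CPM) and APEX2-GFP (32.2 ± 8.32, SD, n = 4 each), with an adjusted p of 0.934 by edgeR. Gsdme, another gasdermin gene, was at 18.2 ± 5.83 under APEX2-DPP4 and 43 ± 15.7 under APEX2-ACTB, also without overlap (n = 4 each, edgeR adjusted p = 0.807). The other two in that comparison, named after their values were seen, were Tnfaip3, which encodes an enzyme that restrains NF-κB signalling, at 6.03 to 32.1 normalized CPM under APEX2-DPP4 and 33.4 to 64.3 under APEX2-ACTB, and Nek7, a kinase that NLRP3 needs for its activation, whose highest APEX2-DPP4 value and lowest APEX2-ACTB value were both 44.3 as rounded. Smaller p-values than those of Casp8 and Gsdme were found for Il22ra1 in DPP4/GFP (unadjusted p = 0.0251 by edgeR) and for Nlrp9b and Nlrp10 in DPP4/ACTB (0.0169 and 0.0343), all at an adjusted p of at least 0.806.

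On the enterocyte index, 2.11% of all genes tested were called above 0 and 1.41% below. Of the 40 tested genes of this list, 4 were called above 0 and 1 below. Those above were Naip1 (slope 0.90, SE 0.15, adjusted p = 0.00106), Naip5 (0.57, SE 0.12, adjusted p = 0.0045), Naip6 (0.28, SE 0.08, adjusted p = 0.0463) and Nlrp1b (0.90, SE 0.23, adjusted p = 0.0271). Naip1, Naip5 and Naip6 are related genes, and 20.5%, 23.8% and 12% of their stretches of 75 bases occur in another gene, so that reads among them may be lost. Nlrp1b, another sensor gene, reached 18.3 normalized CPM in APEX2-ACTB library 2, with 0 to 0.0676 in the other 3 of that bait. Nlrp10 was called below 0 (-2, SE 0.32, adjusted p = 0.000384), with 81.6 normalized CPM in library 1 of APEX2-GFP, 55.1 in library 4 of APEX2-DPP4 and at most 1.26 in the other 10. The median slope of the list, -0.09, was close to that of all genes, -0.08, and 12 of the 40 slopes were above 0. On the interferon index none of the 40 was called, Nlrp9b having the smallest p (slope -0.99, SE 0.43, adjusted p = 0.823).

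In the MITO-V5-APEX2 pair, the sensor, adaptor and caspase genes were lower in the library with H2O2 and Il18 and Gsdmd were higher. With 1 library each there is no replicate and no test, and the intervals cover counting error only. Nlrp6 had 1753 reads (96 CPM) with H2O2 and 2851 (152 CPM) without, a log2 ratio of -0.67 (95% interval -0.75 to -0.58). Casp4 differed most, with 52 against 429 reads and a ratio of -3.00 (-3.41 to -2.58), then Pycard at -1.73 (-1.87 to -1.60) and Casp1 at -1.63 (-1.83 to -1.43). Il18 was at 0.62 (0.51 to 0.73) and Gsdmd at 0.57 (0.50 to 0.63). The median over 15960 genes was -0.29, and TMM scaling shifted all ratios by 0.22 without changing a sign. Gsdmc2, Gsdmc3 and Gsdmc4 had 0 reads in both, which allows up to 0.164 and 0.16 CPM.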

How the data were processed

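The deposited table holds unnormalized counts for each gene in 14 columns, 1 per library, and 0 columns of other samples. Per the labels and methods, the authors used cutadapt 4.0 for trimming, STAR 2.7.9a for alignment to GRCm38 (mm10) and the default mode of HTSeq 1.99.2 for counting. The authors' later removal of libraries and correction for preparation dates are not in these counts, and neither is named per library. Totals were 9442594 to 36492010 counts per library. IDs were matched to GENCODE names (54349 with and 792 without version, among them Casp1; 260 unmatched). Using R 4.3.3, edgeR 4.0.16 (quasi-likelihood, robust, TMM, at least 5 counts over the libraries fitted) compared baits 2 at a time, or fitted a slope on an index (mean log2 CPM, prior count 2) with bait over 12 libraries. Benjamini-Hochberg adjustment covered all genes tested. The fits were run on simulated data, where recovery was required only at a spread smaller than that of the members over the 12 libraries. DESeq2 1.42.0, other scaling, filters and left-out libraries were alternatives. MITO ratios had 0.5 counts added. Of the further pathway genes, those called and the 4 with the smallest p per comparison were eligible to be named. Members and lists were chosen with earlier results of these data known. Some genes that these rules name are not reported here.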

Additional observations from a re-analysis of the deposited data

Results flagged for a closer look

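Within a bait, 7 of 21 groups of 4 libraries held 1 library far from the other 3 by Dixon's test of the gap over the range. For normally distributed values this test flags about 1 in 20 groups. It was run on normalized CPM without a log, which are skewed, so the 7 groups cannot be set against that rate. A group with 0 in 3 libraries, as for Gsdmc2, gives the largest possible ratio by construction. Library 2 of APEX2-ACTB accounted for 5 of the 7. There Nlrp6 was at 425 normalized CPM against 4.89 to 43.9 in the other 3 libraries, Casp1 at 134 against 0.0285 to 9.84, Pycard at 150 against 12.5 to 24.1, Il18 at 78.2 against 30.1 to 32.2 and Gsdmc2 at 9.36 against 0. The same library had an enterocyte index of 9.67, against 0 to 5.34 in the other 3, and its total of 30682267 counts was within the range of that bait. Casp4 and Gsdmd did not stand apart in it. Il18 was also far from the rest in library 1 of APEX2-DPP4, at 87.7 against 4.65 to 10.1, the library with the highest enterocyte index of all. Gsdmc4 was at 0.455 in library 4 of APEX2-DPP4 against 0 to 0.052, which is 4 reads.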

How the results depend on the processing

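Of 770 values under alternatives of 55 results, 695 were classed as the same. For fold changes, slopes and p-values this means the same direction, where there is one, and side of the threshold. For counts of calls it means a change within a set ratio, and for MITO ratios a value inside the counting interval. The members with a called enterocyte slope, 3 and without APEX2-ACTB library 2 only 2, were thus classed as the same, though Nlrp6 and Pycard lost their calls there. Genes called numbered 53, 73 and 141 with DESeq2 and 6, 0 and 60 with no filter on low counts, in DPP4/GFP, ACTB/GFP and DPP4/ACTB, in place of 0. With single libraries left out they were 0 to 10 in ACTB/GFP (1 without APEX2-GFP library 1, 10 without APEX2-ACTB library 2) and 0 to 56 in DPP4/ACTB (56 without APEX2-ACTB library 2). The cause was not tested.

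Whether the same replicate numbers pair the libraries is not stated. The deviations of same-numbered libraries correlated at -0.63 to 0.08, -0.11 to 0.24 and -0.2 to 0.5 in the same 3 comparisons. The highest, 0.5, was that of the fourth libraries in DPP4/ACTB. These correlations cannot decide the matter, since differences in enterocyte genes between libraries may enter the deviations too. With the number as a block, 166 genes were called in DPP4/ACTB, the log2 fold change of Casp1 in DPP4/GFP was -0.21, the interferon slope of Il18 was -0.09, and 1 member (Casp1) in place of 3 had a called enterocyte slope, with Nlrp6 at 0.49 (adjusted p = 0.0623), Pycard at 0.42 (adjusted p = 0.0851) and 260 genes called.

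The enterocyte slope of Nlrp6 was 0.32 to 0.68 over single libraries left out, 0.32 being without APEX2-ACTB library 2. Uncalled values that changed sign were those of Casp4 in DPP4/ACTB (0.02 with DESeq2, 0.02 with RLE scaling, 0.33 without both libraries under 50% of the median) and of Gsdmc4 there (-1.38). Without those libraries, chosen for the slopes after seeing the data, the enterocyte slope of Gsdmd was 0.03 and the interferon slope of Il18 -0.04. The interferon slope was 0.10 for Casp1 without GTPase genes in the list and 1.48 for Gsdmc2 without bait in the model. Over single libraries left out, uncalled log2 fold changes crossed 0 in DPP4/GFP for Il18 (-1.21 to 2.01), Casp1 (-0.29 to 1.76) and Pycard (-1.05 to 0.24), in ACTB/GFP for Casp1 (-3.32 to 0.67) and in DPP4/ACTB for Casp4 (-0.74 to 0.48), Gsdmd (-0.64 to 0.15) and Gsdmc4 (-1.38 to 1.68). So did the enterocyte slope of Gsdmd (-0.11 to 0.09) and the interferon slopes of Casp1 (-0.45 to 0.66), Il18 (-0.11 to 0.23), Pycard (-0.41 to 0.01) and Gsdmc2 (-2.06 to 0.36). Gsdmc2 had a called enterocyte slope under 6 alternatives, although all of its reads are in 1 library.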
